A study of Mus musculus with 10 samples.

Results

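The genes described here are the small nucleolar RNA (snoRNA) and small Cajal body RNA (scaRNA) genes of the deposited table, taken as every gene whose symbol begins with Snord, Snora or Scarna. They are 82 of the 12791 genes listed. Box C/D snoRNAs (Snord) make up 46 of them, box H/ACA snoRNAs (Snora) 32 and scaRNAs (Scarna) 4.

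Box C/D snoRNAs are bound by fibrillarin, NOP56, NOP58 and SNU13 and guide the methylation of ribose in ribosomal RNA, while box H/ACA snoRNAs are bound by dyskerin, GAR1, NHP2 and NOP10 and guide the conversion of uridine to pseudouridine. ScaRNAs carry the same boxes and guide the same modifications in the small nuclear RNAs of the spliceosome. In vertebrates most of these RNAs are cut from the introns of host genes, many of which encode ribosomal proteins or translation factors, and others of which, such as Gas5 and the Snhg genes, are noncoding.

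The study sequenced RNA of mouse hematopoietic progenitors, bone marrow cells that carry c-Kit but neither Sca-1 nor lineage markers. Its 10 libraries come from C57BL/6 mice and, per the series' design text, from a strain with GFP knocked into the gene of KDR, through which cells respond to vascular endothelial growth factor. They are 3 KDR-positive and 4 KDR-negative libraries of mice that bore tumors of GL261, a mouse glioma line, at week 4, and 3 naive libraries of mice with no tumor. About 20000 cells, described as GFP-positive, went into a sample and 0.1 ug of total RNA into a TruSeq RNA library. How that description applies to the KDR-negative libraries is not resolved here. Since the labels do not say whether libraries of a group are different mice, the p-values speak only for these samples.

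The authors' deposited table holds 2 comparisons, and for each gene and comparison it lists the fold change and mean level on the log2 scale, the level in CPM (counts per 1e6 reads), with raw and adjusted p. It has no value per library, so depth is unknown and no spread between replicates can stand beside a value. Its header does not name the groups. The group in which a positive fold change means a higher level is called the numerator group and the other the denominator group. The denominator groups of the comparisons had matching levels over all genes and are treated as the same group, and the sources used here do not say which question of the design each comparison answers. Mean and fold change together give the level of each group in CPM. Genes with an adjusted p under 0.05 are called higher or lower by the sign of their fold change. Kdr, which marks the sort, was not called in either comparison of the authors' deposited table (log2 fold changes 1.26 and -1.11). Nor were Kit, the gene of c-Kit, at 38.8 CPM in the first numerator group and 58.6 CPM in the first denominator group, and Ly6a, the gene of Sca-1, at 37.2 CPM against 27.6 CPM.

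The scale of the first comparison bears on every direction given for it. The derived levels of all genes summed to 2127125 CPM in the first numerator group and 756537 CPM in the first denominator group, a log2 ratio of 1.49, and the log2 fold changes of all genes in the authors' deposited table had a median of -0.13. Plain counts per 1e6 reads cannot sum to more than 1e6, so the levels of the first numerator group are on some other scale. The sources used here do not state that scale, and CPM is kept as the name of the unit. If both groups were set to equal totals, every log2 fold change of the first comparison would be lower by 1.49, and each positive one below 1.49 would turn negative. Directions below are on the deposited scale. The totals of the second comparison were 723665 CPM in its numerator group and 744027 CPM in its denominator group. The values are not known to be per length, so an order among genes is one of CPM and not of molecules.

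The sequences that carry the main contrast are those of snoRNAs from the same host gene, since these are cut from 1 precursor transcript. They are GENCODE M21 transcripts of GRCm38, read 5′ to 3′ and written as DNA. In box C/D snoRNAs the capitals mark TGATG, the core of box C, where it lies within the first 20 bases, and CTGA, box D, where it lies within the last 15. In box H/ACA snoRNAs they mark an ACA that starts within the last 10 bases. The first set is the 4 listed snoRNAs of Rpl13a, which encodes a ribosomal protein of the large subunit. The order is by rising level in the first numerator group.
Snord34: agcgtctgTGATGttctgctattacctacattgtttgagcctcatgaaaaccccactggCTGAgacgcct
Snord35a: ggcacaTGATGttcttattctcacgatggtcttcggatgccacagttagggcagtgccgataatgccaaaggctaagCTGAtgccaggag
Snord33: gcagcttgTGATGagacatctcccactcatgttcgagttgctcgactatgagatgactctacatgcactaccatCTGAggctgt
Snord32a: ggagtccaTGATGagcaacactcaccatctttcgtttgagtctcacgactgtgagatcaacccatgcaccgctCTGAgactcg
The second set is the pair from Gnl3, the gene of the nucleolar protein nucleostemin, in which Snord19 has neither motif in its window.
Snord19: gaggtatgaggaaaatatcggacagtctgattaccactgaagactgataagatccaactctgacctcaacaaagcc
Snord69: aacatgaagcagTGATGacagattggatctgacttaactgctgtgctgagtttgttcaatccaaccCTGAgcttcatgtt
The third set is the near-identical pair from 1810032O08Rik, a noncoding host.
Snord1b: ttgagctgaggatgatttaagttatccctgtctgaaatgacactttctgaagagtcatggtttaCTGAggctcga
Snord1c: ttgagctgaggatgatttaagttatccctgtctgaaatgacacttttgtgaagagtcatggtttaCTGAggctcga
The fourth set is a pair of H/ACA snoRNAs from Snhg12, a noncoding host.
Snora61: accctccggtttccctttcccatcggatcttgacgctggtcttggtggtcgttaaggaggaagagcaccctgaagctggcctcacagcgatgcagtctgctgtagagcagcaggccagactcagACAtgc
Snora16a: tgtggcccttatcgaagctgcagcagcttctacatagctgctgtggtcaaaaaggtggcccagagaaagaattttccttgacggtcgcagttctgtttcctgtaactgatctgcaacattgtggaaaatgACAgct
Shown with them are Snord12, which had the smallest p of all genes in the first comparison, and Snora65, the H/ACA snoRNA that was called higher there.
Snord12: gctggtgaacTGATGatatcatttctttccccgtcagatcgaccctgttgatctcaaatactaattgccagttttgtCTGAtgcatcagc
Snora65: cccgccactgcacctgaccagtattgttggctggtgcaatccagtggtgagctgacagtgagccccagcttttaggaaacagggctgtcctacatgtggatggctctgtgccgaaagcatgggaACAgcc
The last set holds the members called in the second comparison, Snord15a and Snora15, and Snord15b, which shares the host of Snord15a.
Snord15a: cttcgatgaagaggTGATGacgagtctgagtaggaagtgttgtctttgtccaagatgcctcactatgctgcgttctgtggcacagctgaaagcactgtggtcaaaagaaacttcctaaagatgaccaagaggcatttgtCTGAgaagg
Snord15b: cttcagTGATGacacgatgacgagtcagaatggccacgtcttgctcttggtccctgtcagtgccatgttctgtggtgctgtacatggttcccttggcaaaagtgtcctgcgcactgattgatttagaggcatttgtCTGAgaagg
Snora15: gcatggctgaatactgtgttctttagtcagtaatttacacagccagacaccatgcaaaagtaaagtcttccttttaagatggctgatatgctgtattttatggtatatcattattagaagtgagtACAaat

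The motifs were found in most genes of these families. TGATG lay in its window in 41 of 46 Snord members, among them 19 of the 22 that were near 0 in the first numerator group (below) and 22 of the other 24, and in 88.7% of all 97 annotated Snord genes. CTGA was found in 43 of 46 Snord members, in 19 of the same 22 and 24 of the other 24, and in 93.8% of the annotated genes. The 3 without it in the window, Snord19, Snord53 and Snord91a, were all near 0, and the difference was not tested. In Snord19 a CTGA lies just outside the window, so this count depends on the window and the annotated end. ACA was found in 30 of 32 Snora members and in 95.0% of 40 annotated Snora genes. Only the RNA strand was searched, and a match is a description of letters only.

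In the first comparison a large share of these RNAs lay near 0 in the numerator group. Of the 82 members 38 were called lower and 3 higher, and 41 were not called. This is 46.3% lower and 3.66% higher, where the calls over all genes of the authors' deposited table were 3.49% lower and 18.8% higher. A further measure is the number of genes below 0.2 CPM for the numerator whose denominator level was at least 20 CPM. It held 30 of the 82 members, called near absent here, and 0.414% of all genes. In bulk RNA, fewer cells that hold a snoRNA and less of it per cell cannot be told apart. The levels are those of the libraries, and whether the groups differed in the recovery of short RNAs was not tested.

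**Figure D1:**
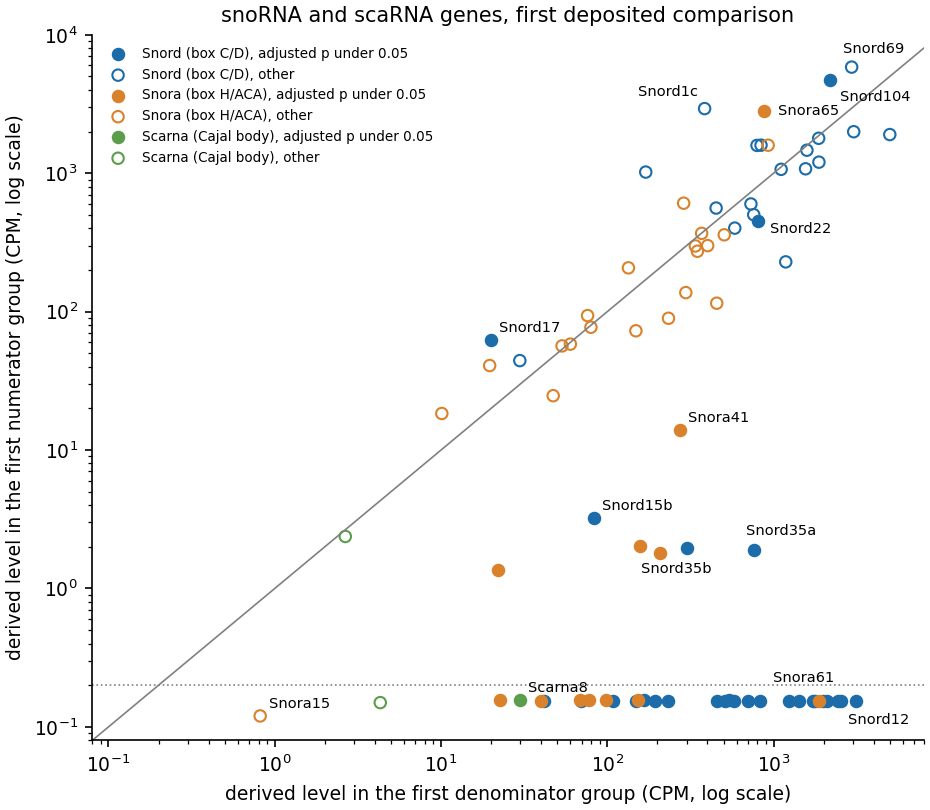
Derived level in CPM of each member in the first numerator group (vertical, log scale) and first denominator group (horizontal, log scale), with filled points for an adjusted p under 0.05, a diagonal of equal levels and a dotted line at 0.2 CPM; Scarna10, at 0 in both groups, is not drawn. A row of 30 filled points lies under the dotted line at denominator levels of 22.7 to 3130 CPM, no member lies between 0.157 and 1.37 CPM in the numerator group, and most other points lie along the diagonal.

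The plot of levels in the first comparison shows the members in separate ranges of the numerator level. The 30 members of the lower row stood at 0.153 to 0.157 CPM in the numerator group and at 22.7 to 3130 CPM, with a median of 484, in the denominator group. All 30 were called lower, a direction fixed by the limits that chose them. Their numerator levels are nearly the same, so their fold changes follow the denominator level and any prior count of the authors' fit, and are no bound. No member lay between 0.157 and 1.37 CPM in the numerator group. A middle set of 7 members stood at 1.37 to 14.0 CPM there, with at least 20 CPM for the denominator. All 7 were called lower, and the limits of this set fix the direction too. The remaining members at 20 CPM or more in both groups numbered 38. Their log2 fold changes in the authors' deposited table had a median of -0.09, and 27 of them lay within 1 log2 unit of 0. At equal totals that median would be -1.58.

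Box C/D snoRNAs held most of the near-absent members. Of 46 Snord genes 26 were called lower and 2 higher, 22 were under 0.2 CPM in the numerator group, and the median of the authors' deposited log2 fold changes was -7.66. Snord12, which in human guides methylation of 28S rRNA, stood at 0.154 CPM in the numerator group and 3126 CPM in the denominator group. The authors' deposited table gives it -14.31 on the log2 scale (adjusted p = 2.8e-88). Snord57, an 18S guide in human, stood at 0.154 and 2560 CPM in the numerator and denominator groups (log2 fold change -14.02, adjusted p = 1.7e-66, from the authors' deposited table). Both were thus among the 5 C/D snoRNAs with the highest level in the denominator group and were at the lowest level in the numerator group.

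The next C/D snoRNAs by p behaved alike. Snord19 had 0.154 CPM in the numerator group and 1974 CPM in the denominator group. Snord65, an 18S guide in human, had 0.154 CPM against 2102 CPM, and Snord34, a 28S guide in human, 0.155 CPM against 1764 CPM. Snord99 and Snord52, both 28S guides in human, had 0.155 and 0.154 CPM in the numerator group, against 1427 and 1715 CPM in the denominator group. The log2 fold changes of these 5 genes in the authors' deposited table ran from -13.17 to -13.74, with adjusted p-values of 8.7e-43 or less. Snord35a stood above these numerator levels, though depth is unknown. It kept 1.91 CPM in the numerator group, against 762 CPM in the denominator group (log2 fold change -8.64, adjusted p = 5.2e-51, from the authors' deposited table).

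The p-value did not follow the size of the fold change among the near-absent genes. Snord37, a 28S guide in human, fell to 0.154 CPM in the numerator group, against 2431 CPM in the denominator group, much as Snord57 did, yet its p in the authors' deposited table was 6.6e-15, against 2.6e-70 for Snord57. Snord91a stood at 0.156 CPM in the numerator group and 167 CPM in the denominator group, with a log2 fold change of -10.06 and an adjusted p of 0.0071 in the authors' deposited table. How far libraries of a group differed behind these p-values cannot be read from a table of group values.

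Other C/D snoRNAs of like abundance in the denominator group were not called. Snord69, a 28S guide in human, was the highest member of the numerator group, at 5838 CPM against 2948 CPM in the denominator group, and was not called (log2 fold change 0.99, adjusted p = 0.48, from the authors' deposited table). Snord47, a 28S guide in human and the highest member of the denominator group, had 1901 CPM in the numerator group and 4999 CPM in the denominator group (-1.39 on the log2 scale, adjusted p = 0.29, from the authors' deposited table). Snord100, an 18S guide in human, had 1993 CPM in the numerator group and 3033 CPM in the denominator group and was not called either. Near-absent Snord genes had a median of 638 CPM in the denominator group and the other Snord genes 799 CPM. The medians there were 77.8 CPM for near-absent Snora genes and 209 CPM for the other Snora genes.

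The C/D snoRNAs called higher were Snord17 and Snord104, both 28S guides in human. Snord17 had 62.1 CPM in the numerator group and 19.997 CPM in the denominator group (log2 fold change 1.63, adjusted p = 1.3e-05, from the authors' deposited table). Snord104 had 4691 CPM against 2174 CPM, or 1.11 on the log2 scale in the authors' deposited table, with an adjusted p of 0.020. At equal totals the value of Snord17 would be 0.14 and that of Snord104 would turn to -0.38. Snord22, which in Xenopus is needed for the processing of 18S rRNA, was the single member called lower with 20 CPM or more in both groups, at 453 CPM in the numerator group and 804 CPM in the denominator group (log2 fold change -0.83, adjusted p = 0.039, from the authors' deposited table). The largest positive C/D values, 2.93 for Snord1c and 2.58 for Snord45c in the authors' deposited table, were not called (adjusted p = 0.092 and 0.39).

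The H/ACA family held fewer such members. Of 32 Snora genes 11 were called lower and 1 higher, 7 were near absent in the numerator group, and the median of the authors' deposited log2 fold changes was -0.98. Whether the families differ was not tested. Snora61, the highest H/ACA member of the denominator group, stood at 0.154 CPM in the numerator group and 1871 CPM in the denominator group (log2 fold change -13.57, adjusted p = 1.7e-58, from the authors' deposited table). Snora75 had 0.156 CPM against 154 CPM, and Snora2b 0.157 CPM against 77.8 CPM, in the numerator and denominator groups. Snora30 and Snora62 stood likewise at 0.155 and 0.156 CPM in the numerator group and at 97.8 and 68.2 CPM in the denominator group. Apart from Snora61, the near-absent H/ACA members had from 22.7 to 154 CPM in the denominator group.

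Some H/ACA snoRNAs were called lower without reaching that lowest level. Snora52 had 1.79 CPM in the numerator group and 209 CPM in the denominator group (log2 fold change -6.86, adjusted p = 4.1e-32, from the authors' deposited table). Snora44 had 2.03 CPM against 157 CPM and Snora41 14.0 CPM against 274 CPM, with log2 fold changes of -6.27 and -4.29 in the authors' deposited table. Together with Snora23, Snord35a, Snord35b and Snord15b they form the middle set of 7. Its members had from 22.0 CPM (Snora23) to 762 CPM (Snord35a) in the denominator group.

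Among the abundant H/ACA snoRNAs, Snora65, a 28S guide in human, was called higher, at 2827 CPM in the numerator group and 873 CPM in the denominator group. The authors' deposited table gives it 1.69 on the log2 scale (adjusted p = 4.6e-06), which equal totals would bring to 0.20. Snora68 had 1593 CPM in the numerator group and 928 CPM in the denominator group and was not called (adjusted p = 0.12, from the authors' deposited table). Snora64 at 359 and 505 CPM, Snora31 at 115 and 455 CPM, Snora81 at 607 and 288 CPM, Snora70 at 299.7 and 401 CPM, and Snora7a at 368 and 369 CPM in the numerator and denominator groups were not called. The log2 fold changes of these 5 in the authors' deposited table lay between -1.98 for Snora31 and 1.08 for Snora81.

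The families can also be summed. All Snord levels added up to 31000 CPM in the first numerator group and 52000 CPM in the first denominator group, which is 1.46% of the table's total in the numerator group and 6.87% in the denominator group. All Snora levels came to 7640 CPM and 8660 CPM, or 0.359% and 1.14% of the totals in the numerator and denominator groups. On the deposited scale the H/ACA sums are thus nearly equal, with Snora65 higher by about as much as Snora61 is lower, and as shares of the total both families are lower in the numerator group.

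Of the scaRNAs only Scarna8 reached 20 CPM in any group. Scarna8, which in human guides modification of U2 snRNA, was near absent in the numerator group at 0.155 CPM, against 29.8 CPM in the denominator group (log2 fold change -7.58, adjusted p = 4.1e-07, from the authors' deposited table). Scarna6 had 0.150 CPM in the numerator group and 4.31 CPM in the denominator group and was not called (log2 fold change -4.85, adjusted p = 0.066, from the authors' deposited table). Scarna13 stood at 2.37 CPM in the numerator group and 2.66 CPM in the denominator group. Scarna10, which in human guides modification of U5 snRNA, was listed at 0 in both groups. The 4 genes are too few, and most of them too low, to describe the class as a whole.

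Few host genes were lower where their guests were. A gene that encloses the snoRNA on the same strand was annotated for 79 of the 82 members and was listed in the table for 76, as 57 different hosts. The 3 without one are Snord104, Snora43 and Snora17. Of the 57 hosts 39 were called higher, 1 lower and 17 were not called, with a median of 1.48 on the log2 scale of the authors' deposited table, against 18.8% called higher among all genes. At equal totals the median would be -0.01, with 28 of 57 hosts above 0. No host was under 0.2 CPM in the numerator group. High expression as such went with higher calls in the first comparison, since 199 of 202 genes other than small RNAs with a denominator level of at least 8 log2 CPM were called higher. The members at that level were unlike them, with 20 of 47 called lower and 2 higher.

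**Figure D2:**
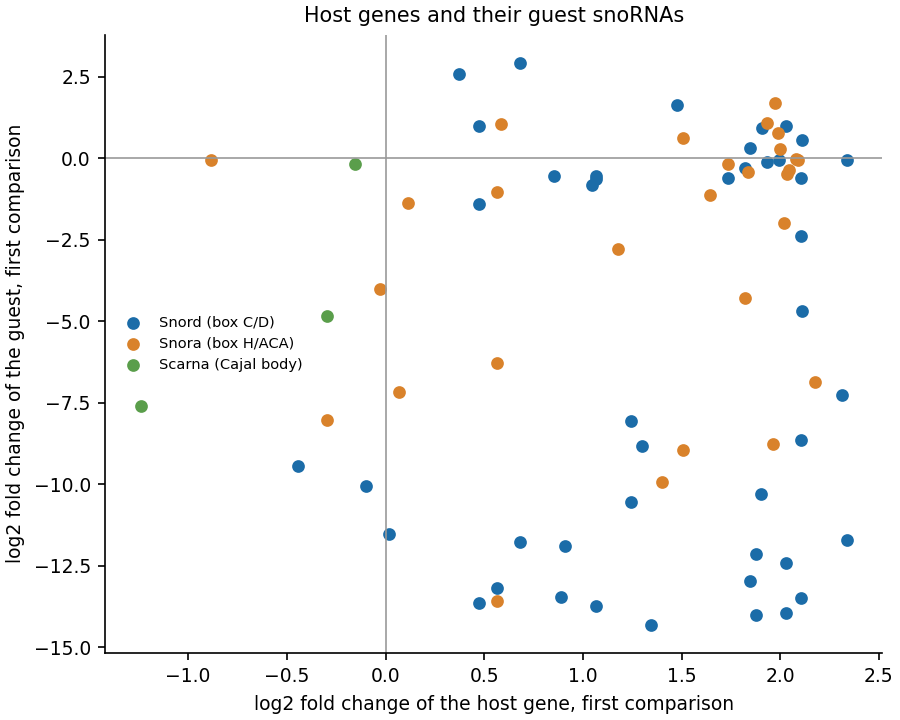
Log2 fold change in the first comparison of each member (vertical) and of its host gene (horizontal), both from the authors' deposited table, colored by family, with lines at 0; a host with several members appears once for each, and Scarna10 is not drawn. Over the 75 pairs shown the hosts lie between -1.24 and 2.34 while the members spread from 2.93 down to -14.31, and low members occur at low and at high host values.

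For members called lower, 36 had a host in the table, of which 24 had a host called higher, 1 a host called lower and 11 a host not called. The host called lower was Haus6, which encodes a subunit of the augmin complex of the spindle and hosts Scarna8 (log2 fold change -1.24, adjusted p = 0.032, from the authors' deposited table). Among near-absent members with a listed host, 18 of 28 had a host called higher. Among all other members with a listed host, 35 of 48 did. The plot of host and guest fold changes has a Pearson r of 0.11 and a Spearman rho of 0.13 over 75 pairs, given as a description, since guests share hosts and the near-absent values depend on the fit. Hosts of near-absent members had a median of 149 CPM in the numerator group and 75.4 CPM in the denominator group, and the other hosts 657 CPM and 167 CPM. The host of Snord12, 1500012F01Rik, had 149 CPM against 58.4 CPM. Nop56, host of Snord57 and gene of a core C/D protein, had 967 CPM in the numerator group and 263 CPM in the denominator group, and Eef2, the translation elongation factor that hosts Snord37, had 1137 CPM against 279 CPM.

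SnoRNAs of the same host often differed. The single hosts with several members were chosen after their values were seen. There were 14 hosts with more than 1 listed member, of which 9 held both near-absent and other members, 2 only near-absent ones and 3 none. From Rpl13a, Snord34 stood at 0.155 CPM in the numerator group and 1764 CPM in the denominator group, and Snord35a at 1.91 CPM against 762 CPM. Snord33 had 229 CPM in the numerator group and 1183 CPM in the denominator group, and Snord32a 501 CPM against 760 CPM. Neither of these was called (adjusted p = 0.083 and 0.83, from the authors' deposited table). Rpl13a itself had 3717 CPM in the numerator group and 864 CPM in the denominator group (log2 fold change 2.11, adjusted p = 3.8e-11, from the authors' deposited table). The 4 RNAs printed above all hold both marked motifs, with lengths from 70 bases for Snord34 to 90 bases for Snord35a. Their numerator levels thus ran from 0.155 to 501 CPM, while their denominator levels lay within 760 to 1764 CPM.

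**Figure D3:**
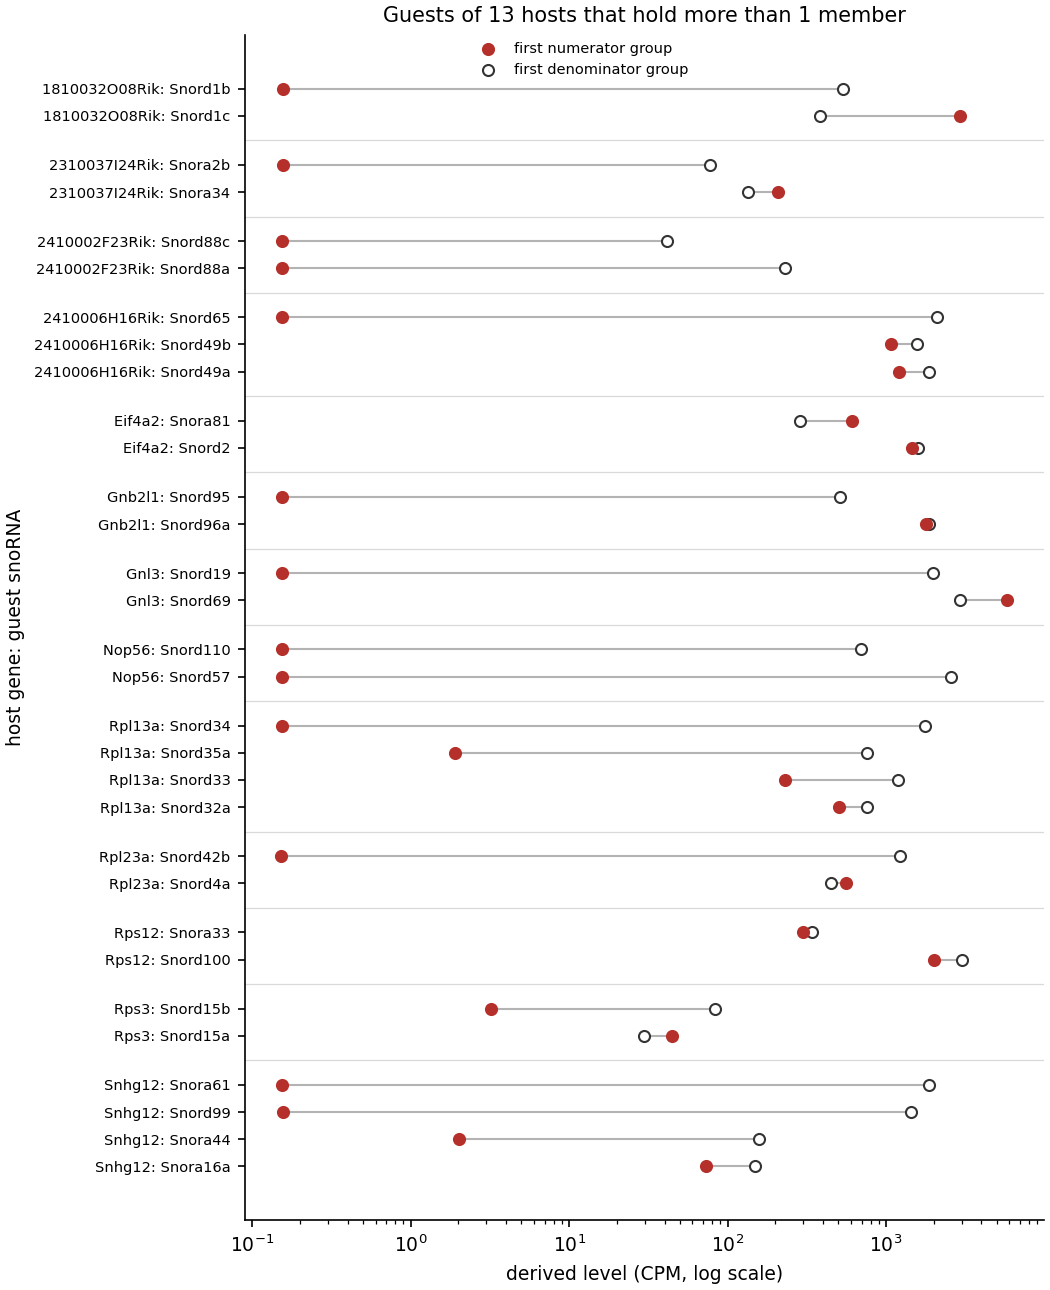
Derived levels in CPM (log scale) of the members of 13 hosts that hold more than 1 of them, with filled points for the first numerator group and open points for the first denominator group, grouped by host. In 8 of the 13 hosts drawn, a guest at 0.153 to 0.157 CPM in the numerator group stands beside a guest that is not near 0 there.

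The same was seen in pairs. From Gnl3, Snord19 was near absent in the numerator group while Snord69 had 5838 CPM, against 1974 and 2948 CPM in the denominator group. From Gnb2l1, which encodes the ribosomal scaffold protein RACK1, Snord95 had 0.154 CPM against 512 CPM, whereas Snord96a, a 5.8S guide in human, had 1787 CPM against 1867 CPM. Ribosomal protein gene Rpl23a gave Snord42b at 0.153 CPM in the numerator group and 1231 CPM in the denominator group, and Snord4a at 560 CPM against 451 CPM. The lowest denominator level among these 6 members was 451 CPM, so all were abundant there.

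Noncoding hosts and a chromatin gene gave the same picture. The noncoding host 2410006H16Rik holds Snord65, near absent in the numerator group, together with Snord49a at 1201 CPM in the numerator group and 1873 CPM in the denominator group and Snord49b at 1076 CPM against 1557 CPM. Snhg12 holds Snora61 and Snord99, both near absent, Snora44 at 2.03 CPM in the numerator group, and Snora16a, which had 72.7 CPM in the numerator group and 149 CPM in the denominator group and was not called (adjusted p = 0.13, from the authors' deposited table). The gene 2310037I24Rik, annotated as Kansl2 of a histone acetyltransferase complex, holds Snora2b, near absent, and Snora34, at 207 CPM in the numerator group and 134 CPM in the denominator group. Both guests were near absent only for Nop56 (Snord57 and Snord110) and 2410002F23Rik (Snord88a and Snord88c). No guest was near absent for Eif4a2 (Snora81 and Snord2), Rps12 (Snord100 and Snora33) and Rps3 (Snord15a and Snord15b).

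Near-identical copies limit what can be said of single genes, because reads may be assigned to either copy. Snord1b and Snord1c are 97.4% identical, with 2 edits between them. Snord1b had 0.155 CPM in the numerator group and 537 CPM in the denominator group, while Snord1c had 2928 CPM against 385 CPM. Their sum was 2930 CPM in the first numerator group and 922 CPM in the first denominator group, and 910 and 904 CPM in the second numerator and denominator groups, so the low value of Snord1b is uncertain as a change of that gene. Snord88a and Snord88c are 94.4% identical and were both near absent. Another annotated gene with at least 90% identity exists for 21 of the 82 members, among them 9 of the 30 near-absent ones, Snora61, Snora75, Snora2b, Snora30 and Snord95 included, and 12 of the other 52. In the Snord family these were 4 of 22 near-absent and 1 of 24 other genes, and in the Snora family 5 of 7 and 11 of 25. Snord12, Snord57, Snord19, Snord65, Snord34, Snord99 and Snord52 have no such copy in the annotation.

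Features that the selection by name did not use overlapped widely between the states. Near-absent Snord genes had a median length of 74.5 bases (64 to 110) and the other Snord genes one of 81 bases (69 to 238). The Snora genes had medians of 133 and 132 bases in the near-absent and other sets. The share of G and C was at a median of 44.6% in near-absent members and 48.5% in the others. Of the near-absent members 15 of 30 overlapped an annotated exon of the host, as did 28 of the other 52, and reads from that exon and from the snoRNA cannot be told apart there.

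Gas5 and the Snhg genes, whose known products include the snoRNAs of their introns, were mostly not called. Of 11 listed genes 3 were called higher and none lower in the first comparison, with a median of 0.51 on the log2 scale of the authors' deposited table. This is 27.3% called higher, where 18.8% of all genes were called higher and 3.49% lower. Snhg1 had 276 CPM in the numerator group and 134 CPM in the denominator group (log2 fold change 1.05, adjusted p = 0.0037, from the authors' deposited table). Snhg3 had 146 CPM against 75.9 CPM and Snhg6 156 CPM against 86.1 CPM, with log2 fold changes of 0.94 and 0.85 and adjusted p-values of 0.0064 and 0.018 from the authors' deposited table. At equal totals all 11 would lie below 0.

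The other 8 of these 11 genes were not called. Gas5, host of Snord47, had 81.2 CPM in the numerator group and 58.4 CPM in the denominator group (log2 fold change 0.48, adjusted p = 0.31, from the authors' deposited table). Snhg12 had 90.03 CPM against 61.0 CPM, Snhg5 117 CPM against 81.9 CPM, Snhg8 59.7 CPM against 39.9 CPM and Snhg4 31.1 CPM against 34.8 CPM in the numerator and denominator groups. The lowest were Snhg7 at 12.9 and 22.4 CPM, Snhg9 at 8.88 and 16.4 CPM and Snhg10 at 7.44 and 8.28 CPM. The near-absence of Snora61 and Snord99 thus stood beside a Snhg12 level that was not called different.

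No gene of the snoRNA pathway lists was called lower on the deposited scale, where 3.49% of all genes were called lower and 18.8% higher. All 4 core proteins of box C/D particles were called higher, with a median of 1.94 on the log2 scale of the authors' deposited table. Fbl, the gene of the methyltransferase fibrillarin, had 1452 CPM in the numerator group and 364 CPM in the denominator group (1.995 on the log2 scale, adjusted p = 6.9e-10, from the authors' deposited table). Nhp2l1, the gene of the protein that binds the C/D fold, stood at 2.08, Nop56 at 1.88 and Nop58 at 0.79 on the log2 scale in the authors' deposited table. Of the 4 H/ACA core proteins Nop10 at 1.75 and Nhp2 at 1.29 were called higher, while Gar1 at 0.51 and Dkc1, the pseudouridine synthase dyskerin, at 0.41 were not (adjusted p = 0.18 and 0.40, from the authors' deposited table). At equal totals 3 of the 4 C/D and 1 of the 4 H/ACA core genes would remain above 0.

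**Figure D4:**
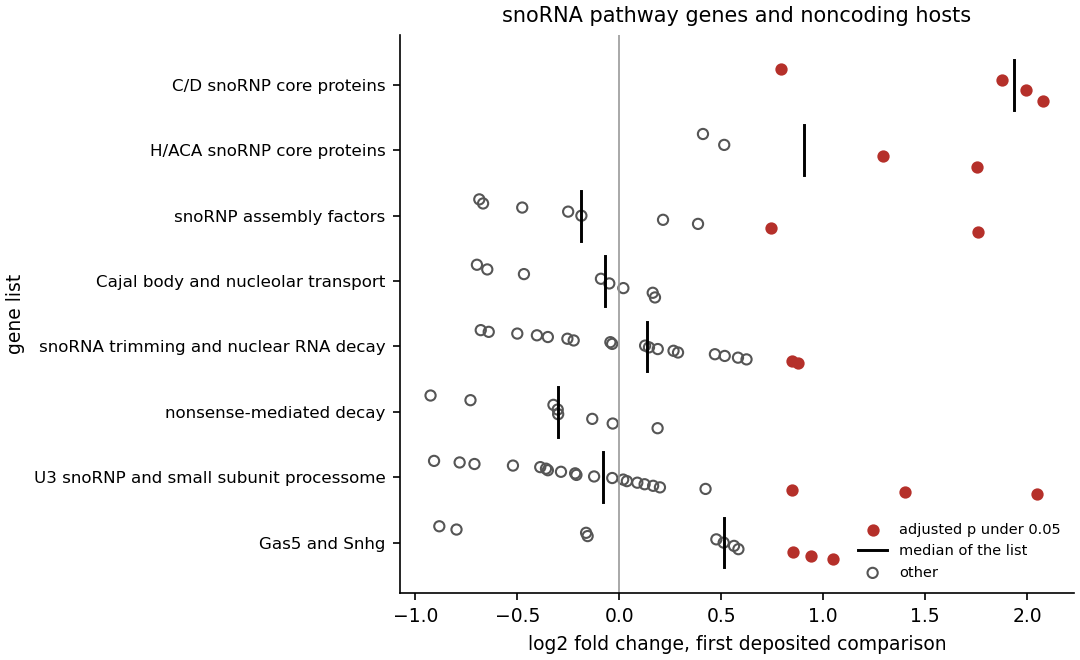
Log2 fold change in the first comparison, from the authors' deposited table, of each gene in the snoRNA pathway lists and of Gas5 and the Snhg genes, with filled points for an adjusted p under 0.05 and a bar at the median of each list. The medians run from 1.94 for the C/D core proteins to -0.30 for nonsense-mediated decay. No gene of the lists was called lower, where 3.49% of all genes were, and equal totals would move every point 1.49 to the left.

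The other lists, chosen with earlier results of these data known, held 0 to 3 calls each, all of them higher. Over all genes 18.8% were called higher. Among 9 assembly factors Ruvbl1 at 1.76 and Ruvbl2 at 0.75 in the authors' deposited table, both ATPases of the chaperone complex that assembles the particles, were called higher, and Shq1 at -0.67 and Znhit3 at -0.48 were not. None of 8 genes of Cajal bodies and nucleolar transport was called, Gemin5, Coil, Wrap53 and Smn1 having the smallest p-values. Of 20 genes of snoRNA trimming and nuclear RNA decay the exosome subunit gene Exosc5 at 0.85 and Rbm7, of the nuclear exosome targeting complex, at 0.88 in the authors' deposited table were called higher. Mphosph6 at 0.62 and Exosc8 at 0.58 were not called (adjusted p = 0.11 and 0.16, from the authors' deposited table). None of 8 genes of nonsense-mediated decay, which degrades many noncoding host transcripts, was called, with Smg6 at -0.93 the lowest (adjusted p = 0.10, from the authors' deposited table) and Upf2, Smg5 and Upf3b next by p. Of 22 genes of the U3 particle and the small subunit processome Npm1 at 2.05, Imp3 at 0.85 and Ncl in the authors' deposited table were called higher, and Heatr1 at -0.71 was not. At equal totals 1 of the 9 assembly, 1 of the 22 processome and none of the other listed genes of this paragraph would lie above 0. The processome genes that were higher include abundant nucleolar proteins (Npm1, nucleophosmin, and Ncl, nucleolin, the host of Snora75) as well as Imp3, a subunit of the U3 particle.

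In the second comparison few of these RNAs were called. Of the 82 members 1 was called lower and 1 higher, or 1.22% each, where the calls over all genes of the authors' deposited table were 0.0391% lower and 0.0704% higher. An unadjusted p under 0.05 was found for 4 members. The log2 fold changes of the members in the authors' deposited table had a median of -0.05, 73 lay within 1 log2 unit of 0, and 32 were positive and 50 negative. The medians were -0.02 for Snord, -0.13 for Snora and 0.33 for Scarna genes. None of the hosts, of Gas5 and the Snhg genes or of the pathway lists was called.

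**Figure D5:**
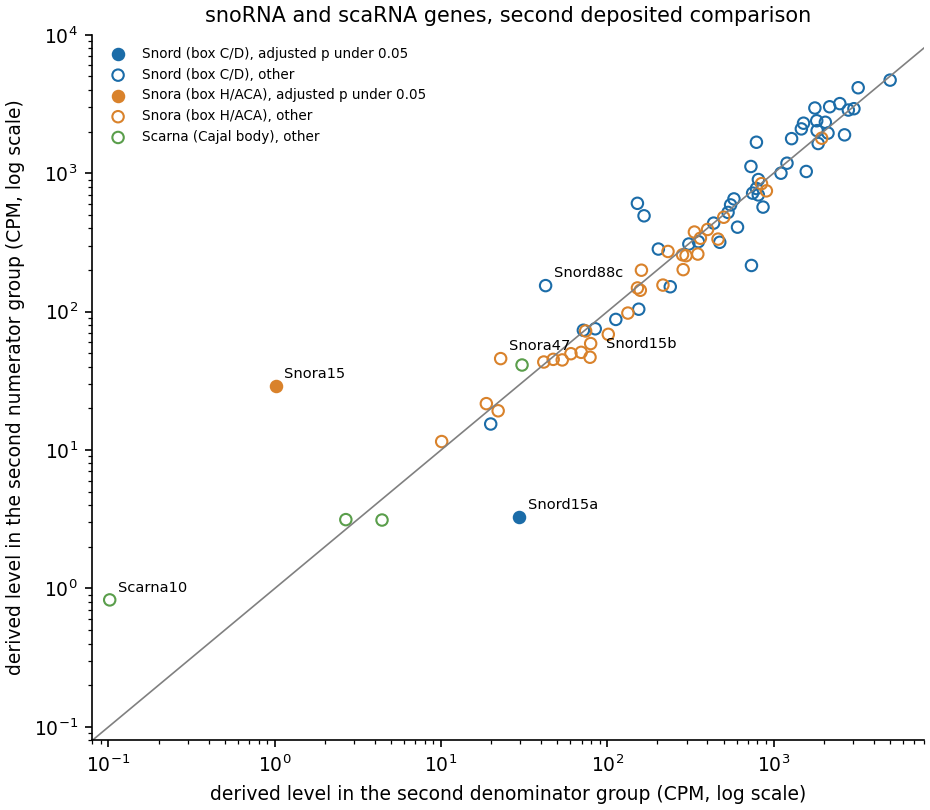
Derived level in CPM of each member in the second numerator group (vertical, log scale) and second denominator group (horizontal, log scale), with filled points for an adjusted p under 0.05 and a diagonal of equal levels. Most members lie along the diagonal, and the filled points are Snora15, at 29.0 CPM in the numerator group and 1.02 CPM in the denominator group, and Snord15a, at 3.27 and 29.5 CPM.

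The 30 members that were near absent in the first numerator group stood at 41.1 to 4140 CPM in the second numerator group, with a median of 362, and at 22.8 to 3230 CPM in the second denominator group. None of them was called in the second comparison. Snord12 had 4142 CPM in the second numerator group and 3227 CPM in the second denominator group, Snord57 1891 CPM against 2671 CPM and Snora61 1789 CPM against 1946 CPM. The highest member, Snord47, had 4702 CPM in the second numerator group and 5022 CPM in the second denominator group. Snord37 with 3181 CPM, Snord65 with 3019 CPM and Snord52 with 2957 CPM in the second numerator group were next below Snord12 there. The comparisons share their denominator group, so their values are set side by side here and not compared with each other by a test.

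Snora15 was the member called higher in the second comparison. It had 29.0 CPM in the numerator group and 1.02 CPM in the denominator group (log2 fold change 4.84, adjusted p = 0.0035, from the authors' deposited table). In the first comparison it was low in both groups, at 0.12 and 0.818 CPM in the numerator and denominator groups, and was not called. Its host Cct6a, a subunit gene of the chaperonin that folds actin and tubulin, was not called in the second comparison and stood at 1.18 on the deposited log2 scale in the first in the authors' deposited table (adjusted p = 4.0e-04).

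Snord15a, a 28S guide in human, was the member called lower in the second comparison, at 3.27 CPM in the numerator group and 29.5 CPM in the denominator group (log2 fold change -3.18, adjusted p = 0.0049, from the authors' deposited table). Snord15b, from another intron of the same host Rps3 and 64.2% identical in sequence, had 75.2 CPM in the second numerator group and 84.6 CPM in the second denominator group and was not called. In the first comparison Snord15a had 44.3 CPM in the numerator group and 29.8 CPM in the denominator group and was not called (log2 fold change 0.57, adjusted p = 0.51, from the authors' deposited table). At equal totals its value would be -0.92. Snord15b had 3.22 CPM in the numerator group and 83.3 CPM in the denominator group and was called lower (log2 fold change -4.69, adjusted p = 2.0e-21, from the authors' deposited table). Of the other members with an unadjusted p under 0.05 in the second comparison, named for that after their values were seen, Snora47 had 45.8 CPM in the numerator group and 22.8 CPM in the denominator group and Snord88c 154 CPM against 42.6 CPM, each with an adjusted p of 1 in the authors' deposited table.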

How the data were processed

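Sorted bone marrow progenitors of 10 mouse libraries were sequenced. Bowtie 0.12.2 and build mm8 stand, without roles, in the submitters' processing notes; the sources used here name no counting or testing program. Per the file headers, the deposited table lists fold changes and mean CPM as logs, with p-values and false discovery rates. The log2 base was inferred, since CPM levels derived from the authors' values under base 2 match between the comparisons. The authors' adjusted p-values equal a recomputed Benjamini-Hochberg adjustment over all 12791 genes. No test was run here.

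Group levels follow from the authors' means and fold changes, with numerator weights of 0.48 and 0.59, which minimized the difference of the denominator levels over 9044 genes above 3 log2 CPM (median absolute deviation 0.002). The fit was tested on simulated data. For members, denominator levels of the comparisons differed by a median of 0.037 on the log2 scale. Levels are not known to be per length and are compared within a gene. No per-sample column was left unused.

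Hosts were the longest genes of GENCODE M21 (GRCm38) that enclose a member on its strand and are listed in the table, older symbols matched through RefSeq synonyms. All 82 members matched both annotations. The RefSeq table planned for this has no strand. Identity was computed with edlib 1.3.9.post1, the rest with Python 3.11.15, pandas 2.3.3, numpy 2.4.6 and scipy 1.17.1. Coordinates are not printed, since the builds differ. The members of 1 further host with several members are counted but not reported here. The sources used here do not say whether counting used strand.

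Named genes are, in Snord and Snora, the 8 called members with the smallest p in each direction of the first comparison, the 5 highest in each group and those called in the second, then every Scarna, Gas5, Snhg and core protein gene, the 4 smallest p in each other list, and hosts. Others were named after their values were seen. The rule also names the genes of U3 RNA itself, for which no value is given here. Members and lists were chosen with earlier results of these data known. Alternatives were thresholds of 0.01 and 0.10, a mean of at least 4 CPM, Holm adjustment, centring, floors, limits, weights, host choice and, added after seeing the data, equal totals.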

Additional observations from a re-analysis of the deposited data

How the results depend on the processing

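The counts of called members in the first comparison held under each alternative run, with 36 to 40 lower (38 as reported) and 2 to 4 higher (3 as reported), and the 30 near-absent members stayed 30 with equal weights, limits of 0.5 and 10 CPM and equal totals. In the second comparison Holm adjustment left 0 members lower, where 1 was called. The medians of the first comparison depend on the near-absent genes. With members at 0.2 CPM or more in both groups they were -0.20 for Snord, -0.27 for Snora and -0.16 for Scarna genes, as reported -7.66, -0.98 and -2.50, and the Scarna median of the second comparison was 0.23 (0.33 as reported). With levels floored at 0.2 CPM they were -7.47 for Snord and -2.30 for Scarna genes, and with the median of all genes subtracted -7.53, -0.85 and -2.37 for Snord, Snora and Scarna genes. Equal totals, an alternative chosen after seeing the data, gave -9.15, -2.48 and -4.0 for these families, -1.58 (as reported -0.09) for members at 20 CPM or more in both groups, and turned the host median to -0.01 (1.48 as reported) and the Snord median of the second comparison to 0.02 (-0.02 as reported). Calls at equal totals could not be computed. All other alternatives left their results on the same side, and 39 hosts were higher with either choice of host. Depth is unknown. No paired analysis was possible because the table holds no value per library, and for the same reason no library could be left out.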

Other observations

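A few small RNAs outside the selection by name, named after their values were seen, were not called lower in the first comparison. Over all genes 3.49% were called lower. These RNAs do not stand for small RNAs as a whole, since 22 microRNA genes met the near-absent limits (below). Rmrp, the RNA of the RNase MRP enzyme that cuts precursor rRNA, had 101 CPM in the first numerator group and 14.5 CPM in the first denominator group (log2 fold change 2.80, adjusted p = 2.8e-10, from the authors' deposited table). Rpph1, the RNA of RNase P, which trims precursor tRNA, had 50.4 CPM in the numerator group and 16.2 CPM in the denominator group (log2 fold change 1.64, adjusted p = 3.6e-06, from the authors' deposited table). Rnu12, the U12 RNA of the minor spliceosome, had 325 CPM against 23.8 CPM (3.77 on the log2 scale, adjusted p = 5.8e-04, from the authors' deposited table), while Rnu11 of the same spliceosome, at 217 CPM against 61.5 CPM, was not called (adjusted p = 0.26, from the authors' deposited table). At equal totals the values of Rmrp, Rpph1 and Rnu12 would be 1.31, 0.14 and 2.28. Terc, the H/ACA-type RNA of telomerase, had 0.14 CPM in the numerator group and 1.95 CPM in the denominator group and was not called (adjusted p = 0.48, from the authors' deposited table). Rnu73b is annotated as a snoRNA but carries a symbol that the selection by name does not take, and is 73.2% identical to Snord73a. Rnu73b had 512 CPM in the numerator group and 611 CPM in the denominator group, and Vaultrc5 1.22 CPM against 0.613 CPM. Neither was called. None of these genes was called in the second comparison.

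The near-absent state was nearly confined to small RNAs among the genes listed. Of the 53 genes under 0.2 CPM in the first numerator group with 20 CPM or more in the first denominator group, 30 were members, 22 were microRNA genes and 1 was neither.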
